A study of Mus musculus with 24 samples.

Results

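Antigen presentation was followed through 10 genes: the class I genes B2m, H2-D1 and H2-M3, the peptide supply genes Psmb8, Tap1 and Tap2, and the class II genes H2-Aa, H2-Ab1, H2-Eb1 and Cd74. They are 10 of the 18193 genes measured. They were chosen by symbol, and every probe set annotated to only one of these symbols was used, 28 probe sets in all; the value of a gene is that of its main probe set, the one with the highest mean over the 24 arrays. Forebrain RNA, without olfactory bulb, cerebellum and brainstem, came from TgCRND8 mice carrying the APPSwe/Ind transgene, a human amyloid precursor protein with familial Alzheimer's disease mutations, and from non-transgenic littermate mice. Both genotypes were sampled at 70, 80 and 150 days of age, with 4 mice in each of the 6 groups and 1 array per mouse. The promoter of the transgene and the sex of the mice are not in the labels. Values are log2 signals, so a difference of 1 is a doubling.

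Class I molecules sit on nearly all nucleated cells and show peptides from inside the cell to CD8 T cells. Their heavy chain is held by beta-2-microglobulin, and their peptides are cut by the proteasome and pumped into the endoplasmic reticulum by the transporter TAP. Class II molecules are made by professional antigen presenting cells, carry peptides from lysosomes and are guarded by the invariant chain Cd74 until a groove is free. In the healthy brain class II is low, and microglia, the resident macrophages, raise both classes when activated. Class I RNA was not low throughout the control arrays here. Among the probe sets of each control array, B2m lay at percentiles 95.3 to 96.3 and H2-D1 at 84.2 to 87.7. H2-M3 lay nearer the middle, at 50.6 to 57.8.

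The promoters of B2m, of the class I heavy chain gene H2-D1 and of the class II gene H2-Aa are shown because B2m separated the genotypes at day 150 while H2-D1 and H2-Aa did not. Each is the 250 bases before the start of transcription, 5′ to 3′, from RefSeq on GRCm38.p6, and 7 of the 10 members had an entry (not H2-Ab1, Cd74 and Tap2). Capitals mark the letters searched on both strands: CCAAT (the Y box), TGACG (the core of the X2 box), GAAANNGAA (the interferon-stimulated response element), TTCNNNGAA (the gamma-activated site) and GGGGATTCC (the class I enhancer A).
B2m, chr2:122147437-122147686, plus strand: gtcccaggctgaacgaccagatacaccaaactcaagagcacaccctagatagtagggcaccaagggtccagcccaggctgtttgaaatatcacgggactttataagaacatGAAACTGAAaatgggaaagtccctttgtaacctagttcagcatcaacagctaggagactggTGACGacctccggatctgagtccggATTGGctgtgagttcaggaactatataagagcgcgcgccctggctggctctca
H2-D1, chr17:35262844-35263093, plus strand: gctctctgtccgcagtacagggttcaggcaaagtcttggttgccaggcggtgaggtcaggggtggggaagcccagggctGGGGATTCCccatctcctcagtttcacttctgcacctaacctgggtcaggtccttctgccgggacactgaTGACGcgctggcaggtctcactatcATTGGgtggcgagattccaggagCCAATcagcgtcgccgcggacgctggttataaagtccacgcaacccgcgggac
H2-Aa, chr17:34287824-34288073, minus strand: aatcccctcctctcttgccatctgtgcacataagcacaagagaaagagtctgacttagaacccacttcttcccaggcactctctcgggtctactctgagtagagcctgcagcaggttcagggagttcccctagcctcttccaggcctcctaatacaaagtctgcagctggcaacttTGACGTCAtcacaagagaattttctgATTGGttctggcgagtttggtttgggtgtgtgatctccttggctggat
The X2 and Y box letters are in all of these windows, on one strand or the other. In H2-Aa the X2 letters on both strands overlap each other. The Y box letters were in 6 of the 7 member windows and in 33.8% of all 32851 windows, and the X2 letters were in 5 of 7 and in 17.8%. The interferon-stimulated element letters were in 1 of 7, B2m, and in 7.13% of all windows; the gamma-activated letters were in H2-M3 and Psmb8 (2 of 7) and in 7.02%, and the enhancer A letters were in H2-D1 alone (1 of 7) and in 0.213%. The interferon-stimulated element was searched only as GAAANNGAA, and the form with its parts in the other order was not counted. The H2-D1 and H2-M3 windows hold that form on the opposite strand, printed as tttcacttc. The search therefore does not show that B2m alone has the element. A match describes the letters and is not a test of binding.

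B2m and Cd74 had the largest genotype differences at day 150, but no member passed the test in any comparison. The 7 comparisons were TgCRND8 against control at each of 3 ages, the mean of those differences, the change of the day 150 difference from the mean of the earlier ones, and day 150 against day 70 in each genotype. A gene passed at an adjusted p under 0.05 by limma, with Benjamini-Hochberg adjustment over all 18193 genes. The share of all genes that passed was 0% at day 70, 0% at day 80, 0.121% at day 150, 0.0385% for the mean genotype difference over the ages, 0.0110% for its change at day 150, 0.0220% for day 150 against day 70 in controls and 0.0879% for the same in TgCRND8. Without adjustment (p under 0.05), 0, 0, 2, 3, 1, 0 and 4 of the 10 members were called in these 7 comparisons, where 3.25%, 3.77%, 4.38%, 3.16%, 5.75%, 7.99% and 2.64% of all genes were. The called members were B2m and Cd74 at day 150, those and Psmb8 for the mean over ages, B2m for the change, and B2m, Cd74, H2-D1 and H2-M3 for age in TgCRND8.

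Array medians lay between 4.28 and 4.37, and arrays correlated as closely between groups (median r = 0.994) as within them (median r = 0.995). Xist, the RNA of the inactive X chromosome, was low on 5 arrays, 1 of them at day 70 (a control) and the other 4 at day 80, divided equally between the genotypes. With the Xist level in the fit, the adjusted p of B2m at day 150 was 0.117 by limma. No day 150 array was low in Xist, so the covariate could hardly change that difference (0.35 with and without it). Markers of neurons, which are found in every brain region, had list means of 10.09 to 10.43 on all arrays.

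**Figure D1:**
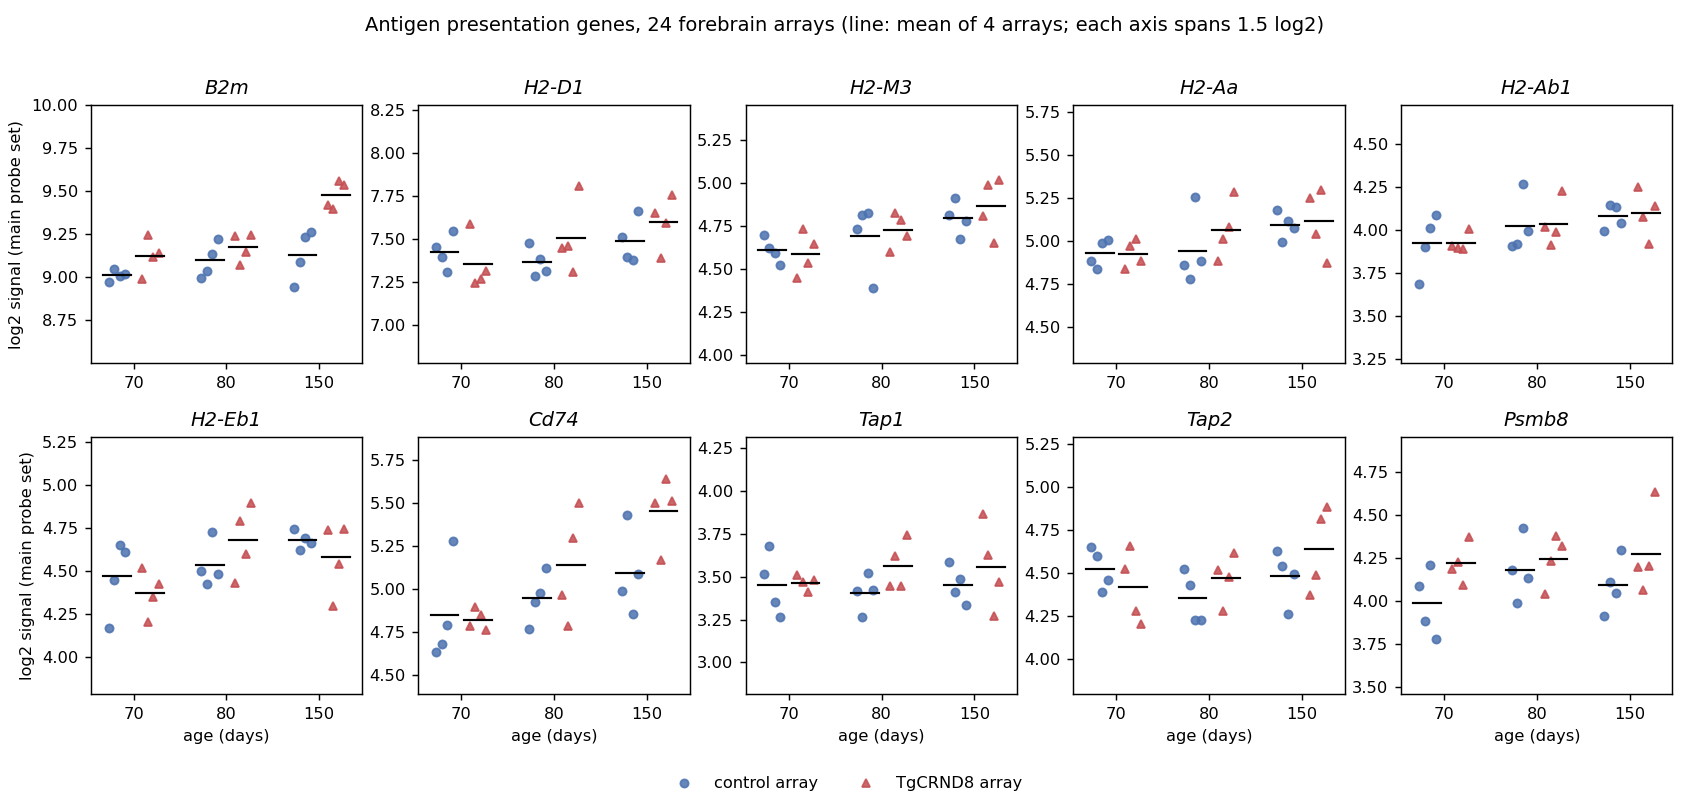
Log2 signal of the main probe set of each of the 10 genes on every array (points, 4 per group) against age in days, with the group mean as a line; each axis spans 1.5 log2. The 4 TgCRND8 arrays of day 150 lie at 9.40 to 9.56 for B2m, above the 4 controls at 8.94 to 9.27.

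B2m encodes beta-2-microglobulin, the light chain shared by class I molecules. At day 150 its main probe set (1452428_a_at) read 9.40, 9.42, 9.54 and 9.56 in TgCRND8 and 8.94, 9.09, 9.24 and 9.27 in controls. All 4 TgCRND8 arrays lay above all 4 controls, with a gap of 0.13; 1.53% of all genes had 4 TgCRND8 arrays above 4 controls at this age. The difference was 0.35 log2 (fold 1.27, standard error 0.078, 95% interval 0.19 to 0.51, n = 4 per group), and its p ranked 27 of 18193. The adjusted p was 0.102 by limma. An exact two-sided permutation test of the 8 arrays gave p = 0.0286, the smallest possible; it was run for 30 pairs of member and age, and no other main probe set reached it. With the replicate number as a block in the fit of all arrays, B2m passed (adjusted p = 0.0365, limma). That fit shares the block over all ages, but same-numbered mice of both genotypes and the same age met the pairing rule, given below, only at day 150. With the block and only the 8 arrays of day 150, B2m did not pass (adjusted p = 0.130, limma). Leaving out each day 150 array in turn gave differences of 0.28 to 0.39 and adjusted p of 0.0713 to 0.568 by limma. In RNA of whole tissue, more cells of a type and more RNA per cell cannot be told apart.

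At day 70 B2m read 8.97, 9.01, 9.02 and 9.05 in controls and 8.99, 9.12, 9.14 and 9.25 in TgCRND8, a difference of 0.11 log2 (standard error 0.078). At day 80 the controls read 8.99, 9.04, 9.14 and 9.22 and TgCRND8 9.07, 9.15, 9.24 and 9.24, a difference of 0.077 (standard error 0.078). The groups overlapped at both ages, where 2.36% of genes at day 70 and 1.25% at day 80 did not. Ordered by mean, the B2m groups were control day 70 (9.01 ± 0.031 SD, n = 4), control day 80 (9.10 ± 0.103), TgCRND8 day 70 (9.13 ± 0.106), control day 150 (9.13 ± 0.15), TgCRND8 day 80 (9.18 ± 0.083) and TgCRND8 day 150 (9.48 ± 0.083). Neighbours among the first 5 overlapped, while the last group did not overlap any other. From day 70 to day 150 B2m was higher by 0.35 in TgCRND8 (standard error 0.078, adjusted p = 0.0984, limma) and by 0.12 in controls (standard error 0.078, adjusted p = 0.716, limma). The genotype difference at day 150 exceeded the mean of those at days 70 and 80 by 0.25 (standard error 0.096, limma adjusted p = 0.812). The mean genotype difference over the ages was 0.18 (standard error 0.045, limma adjusted p = 0.359).

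The class I heavy chain genes did not separate by genotype. H2-D1 read 7.39, 7.59, 7.65 and 7.75 in TgCRND8 at day 150 and 7.38, 7.39, 7.51 and 7.66 in controls, which overlap (difference 0.11, standard error 0.10, 95% interval -0.10 to 0.32). At day 80 TgCRND8 read 7.30, 7.45, 7.46 and 7.81 and controls 7.28, 7.31, 7.38 and 7.48, a difference of 0.14 in which the 7.81 array is the highest of the 8, and without it the difference was 0.041. At day 70 TgCRND8 read 7.24, 7.26, 7.31 and 7.59 and controls 7.31, 7.39, 7.45 and 7.54, a difference of -0.072 with 2 TgCRND8 arrays below every control. With age it was higher by 0.24 in TgCRND8 (standard error 0.10, limma adjusted p = 0.9998) and by 0.062 in controls. The main H2-D1 set is of the _x_at type, whose probes can bind related transcripts, so a signal of neighbouring class I genes may be included. H2-M3, a non-classical class I gene that shows N-formylated peptides, lay at 4.65 to 5.01 in TgCRND8 and 4.67 to 4.91 in controls at day 150 (difference 0.072, standard error 0.096). With age it was higher by 0.28 in TgCRND8 (standard error 0.096, limma adjusted p = 0.9998) and by 0.19 in controls (adjusted p = 0.632, limma).

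Among the peptide supply genes, Psmb8, the inducible catalytic subunit of the immunoproteasome, was the highest by difference over the ages. At day 70 it read 4.09, 4.18, 4.23 and 4.37 in TgCRND8 and 3.78, 3.88, 4.09 and 4.21 in controls, a difference of 0.23 (standard error 0.12, limma adjusted p = 0.9997). The day 80 difference was 0.060 and that of day 150 was 0.18, with values of 4.06, 4.20, 4.20 and 4.63 against 3.91, 4.04, 4.11 and 4.29. Without the 4.63 array the day 150 difference was 0.065, and with the mean of both Psmb8 probe sets it was 0.038; the second set (1444619_x_at) gave -0.11. At day 80 TgCRND8 read 4.04, 4.23, 4.31 and 4.38 and controls 3.99, 4.13, 4.18 and 4.42. The groups overlapped at each age, and the mean over the ages was 0.16 (standard error 0.068, limma adjusted p = 0.9996). Tap1 and Tap2 encode the partner subunits of the peptide transporter. Tap1 differed by 0.012, 0.16 and 0.10 at days 70, 80 and 150 (standard error 0.10 each), and Tap2 by -0.11, 0.12 and 0.16 (standard error 0.12 each). At day 150 Tap1 lay at 3.27 to 3.87 in TgCRND8 and 3.33 to 3.58 in controls, and Tap2 at 4.38 to 4.88 and 4.26 to 4.63; without the highest TgCRND8 array the Tap1 difference at that age was 0.0018. Over all arrays Tap1 (3.26 to 3.87) stayed below the array medians and little above the lower quartiles (3.15 to 3.32).

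Tap1 lies head to head with Psmb9, an inducible proteasome subunit, and their 250-base windows share 225 bases on opposite strands. The Tap1 window and that of Psmb8, its neighbour on the other side, are shown because these genes adjoin while their differences at day 70 (0.012 and 0.23) were unlike in size. The standard errors were 0.10 and 0.12, neither difference passed, and they were not tested against each other.
Tap1, chr17:34187306-34187555, plus strand: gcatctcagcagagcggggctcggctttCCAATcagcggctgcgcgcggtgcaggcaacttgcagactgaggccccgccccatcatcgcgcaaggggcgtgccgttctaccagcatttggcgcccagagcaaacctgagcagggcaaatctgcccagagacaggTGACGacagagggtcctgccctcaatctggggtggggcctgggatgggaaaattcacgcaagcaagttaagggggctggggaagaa
Psmb8, chr17:34197945-34198194, plus strand: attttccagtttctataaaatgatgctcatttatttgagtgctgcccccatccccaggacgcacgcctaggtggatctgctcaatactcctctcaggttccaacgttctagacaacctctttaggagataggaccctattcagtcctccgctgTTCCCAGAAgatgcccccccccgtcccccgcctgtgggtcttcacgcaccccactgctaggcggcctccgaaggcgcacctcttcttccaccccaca
Capitals have the same meaning as in the windows above; Tap1 holds the Y box and X2 letters, and Psmb8 holds a gamma-activated match 97 bases before its start and none of the others. Psmb9 differed by -0.18 at day 150 (standard error 0.10, limma adjusted p = 0.9995); it was picked for this description after its values were seen. Psmb8 and Tap1 correlated at r = 0.10 over the 24 arrays.

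The class II chain genes did not separate by genotype at day 150. H2-Aa, the alpha chain of I-A, read 4.87, 5.04, 5.25 and 5.30 in TgCRND8 and 4.99, 5.08, 5.12 and 5.18 in controls, a difference of 0.024 (95% interval -0.19 to 0.23). H2-Ab1, the beta chain of I-A, differed by 0.018 (95% interval -0.18 to 0.21) and H2-Eb1, the beta chain of I-E, by -0.10 (95% interval -0.33 to 0.13). For H2-Ab1 the arrays lay at 3.92 to 4.25 in TgCRND8 and 3.99 to 4.14 in controls, and for H2-Eb1 at 4.297 to 4.74 and 4.62 to 4.75. From day 70 to day 150 the 3 chains were higher by 0.16 to 0.21 in both genotypes, none past the threshold. At day 80 H2-Aa, H2-Ab1 and H2-Eb1 differed by 0.12, 0.014 and 0.15 and at day 70 by -0.0037, 0.0032 and -0.096.

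Cd74 encodes the invariant chain, which blocks the class II groove until antigen arrives. At day 150 it read 5.17, 5.50, 5.51 and 5.63 in TgCRND8 and 4.85, 4.99, 5.08 and 5.43 in controls. In 3 of 4 TgCRND8 arrays it lay above every control, and the groups overlapped. The difference was 0.36 (fold 1.29, standard error 0.15, 95% interval 0.064 to 0.66, limma adjusted p = 0.9995; exact two-sided permutation p = 0.0571). At day 80 TgCRND8 read 4.78, 4.96, 5.30 and 5.50 and controls 4.76, 4.92, 4.97 and 5.12, a difference of 0.19 with 2 TgCRND8 arrays above every control; without the TgCRND8 array numbered 4 it was 0.071. At day 70 TgCRND8 read 4.76, 4.78, 4.85 and 4.89 and controls 4.63, 4.68, 4.79 and 5.27, a difference of -0.024 with 1 high control. Ordered by mean, the Cd74 groups were TgCRND8 day 70 (4.82 ± 0.061 SD, n = 4), control day 70 (4.84 ± 0.295), control day 80 (4.94 ± 0.148), control day 150 (5.09 ± 0.246), TgCRND8 day 80 (5.14 ± 0.322) and TgCRND8 day 150 (5.45 ± 0.200), and every pair of neighbours overlapped. In TgCRND8 it was higher at day 150 than at day 70 by 0.63 (fold 1.55, standard error 0.15, adjusted p = 0.137, limma) and in controls by 0.24 (standard error 0.15, adjusted p = 0.686, limma). With only the TgCRND8 arrays of these ages in the fit the first passed (adjusted p = 0.0151, limma), and without 1 of the 8 arrays its adjusted p in the full fit ranged from 0.0698 to 0.584.

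**Figure D2:**
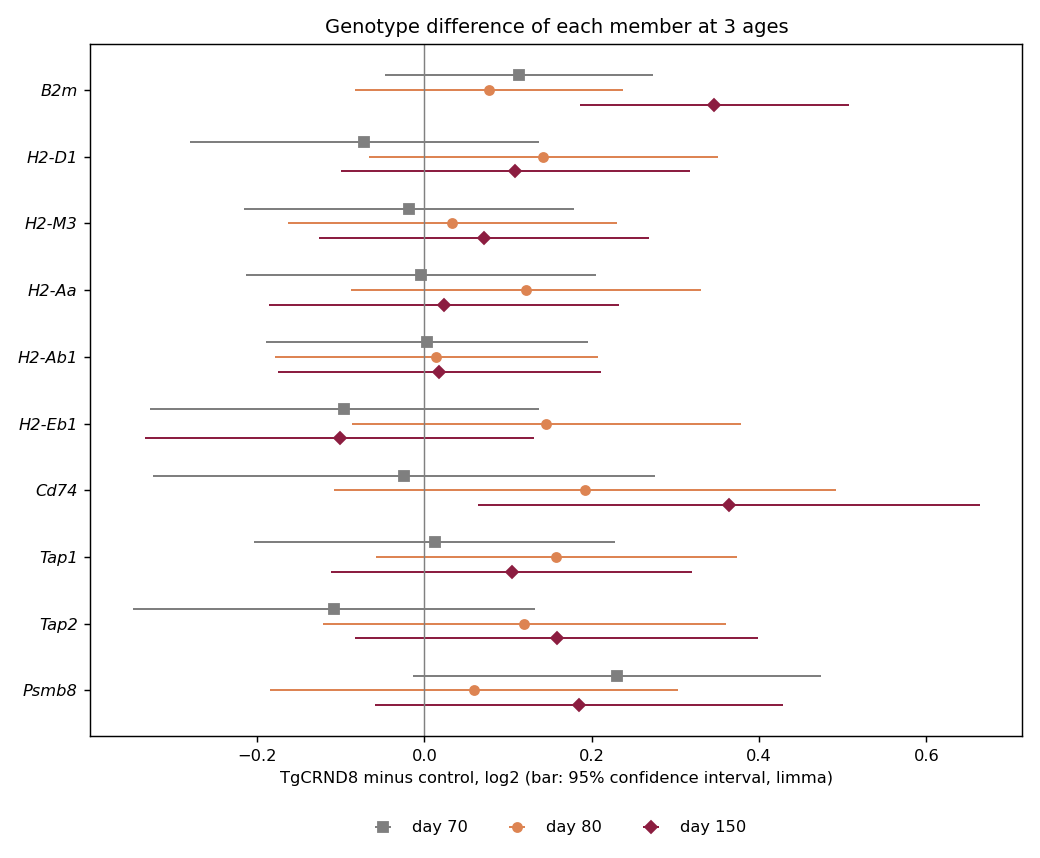
Difference between TgCRND8 and control in log2 for each gene at days 70, 80 and 150 (points) with limma 95% confidence intervals (bars). B2m and Cd74 have intervals above 0 at day 150, at 0.19 to 0.51 and 0.064 to 0.66; the interval of every other gene crosses 0 at each age.

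Over the list, 4, 10 and 9 of 10 members were higher in TgCRND8 at days 70, 80 and 150, with medians of -0.011, 0.12 and 0.11 against -0.0031, 0.0022 and 0.00044 for all genes. Of all genes, 48.7%, 50.9% and 50.1% were higher at these ages. At day 80 the TgCRND8 array numbered 4 was the highest of its group for 8 of the 10 members; without it 9 of 10 were higher, and the median was 0.051. Several marker lists of other cells also lay high in TgCRND8 at day 80, and others did not. The list means were 3.96 to 4.06 against 3.60 to 4.00 for neutrophils (5 of 5 markers higher), 3.97 to 4.12 against 3.93 to 3.97 for B cells (3 of 5) and 3.71 to 3.99 against 3.69 to 3.81 for T and NK cells (7 of 8). Of the choroid plexus markers 5 of 6 were higher (median 0.19), of perivascular macrophages and monocytes 7 of 8 (median 0.11), of microglia 10 of 13 (median 0.080) and of blood 3 of 4 (median 0.10). Endothelium had 6 of 8 higher (median 0.015) and astrocytes 4 of 7 (median 0.026). The remaining lists leaned lower: dendritic cells 3 of 8 (median -0.023), neurons 3 of 8 (-0.035), meninges and fibroblasts 1 of 7 (-0.053) and oligodendrocytes 1 of 6 (-0.055). The part of these cells in the day 80 values was not tested. With age all 10 members were higher in TgCRND8 (median 0.21) and 9 of 10 in controls (median 0.14), with none passing; of all genes 48.8% were higher in each genotype, with medians of -0.0026 and -0.0034. At day 70 the count of 4 became 2 with quantile normalization or median centring.

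**Figure D3:**
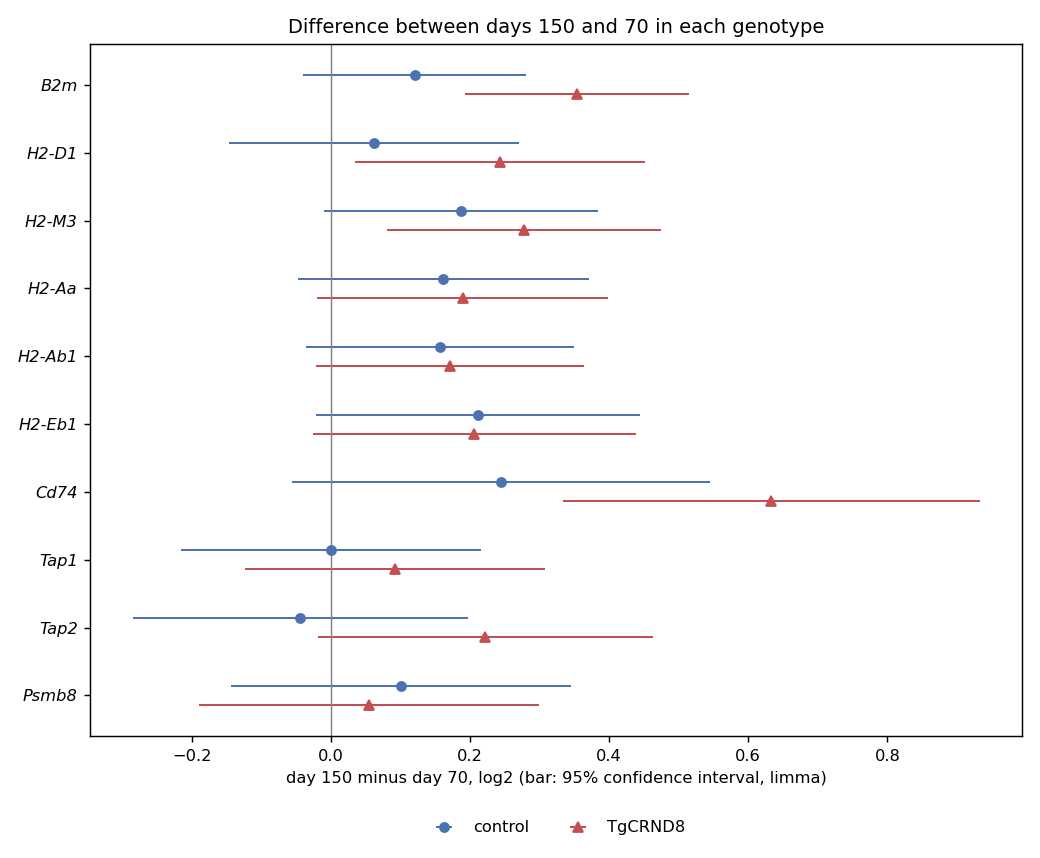
Difference between days 150 and 70 in log2 for each gene in controls (circles) and TgCRND8 (triangles) with limma 95% confidence intervals (bars). In TgCRND8 the intervals of B2m, H2-D1, H2-M3 and Cd74 lie above 0, and in controls every interval crosses 0.

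The 28 probe sets differed in level and in how closely they followed the main set of their gene. The second B2m set (1449289_a_at) was higher by 0.24 at day 150 (standard error 0.099, exact two-sided permutation p = 0.0857) and correlated with the main set at r = 0.81 over the 24 arrays. The 9 H2-D1 sets ranged from -0.16 to 0.22 at day 150, and the 4 dimmest had both signs. Of these, 1427651_x_at (-0.16) and 1450170_x_at (0.22) had groups that did not overlap, in opposite directions (exact two-sided permutation p = 0.0286 each). Their means, 3.13 and 2.74, were below the highest lower quartile of any array (3.32), and their r with the main set was 0.28 and -0.0066. The exact test was run for all 28 sets. By main sets, 1.53% of all genes had 4 TgCRND8 arrays above 4 controls. The share with TgCRND8 below the controls, the direction of 1427651_x_at, was not counted. Neither share was counted over all probe sets. A second H2-Aa set (1435290_x_at) was higher by 0.52 with age in TgCRND8 and by 0.37 in controls, where the main set gave 0.19 and 0.16. By genotype this set differed by 0.27 at day 80 and 0.19 at day 150 (standard error 0.17 each). The main set gave 0.12 and 0.024. At day 150 its groups overlapped (exact two-sided permutation p = 0.314), and the remaining H2-Aa sets gave 0.075 and 0.0028. The main H2-Aa set is also of the _x_at type. A further 2 sets were annotated to H2-D1 together with other class I genes and were left out.

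**Figure D4:**
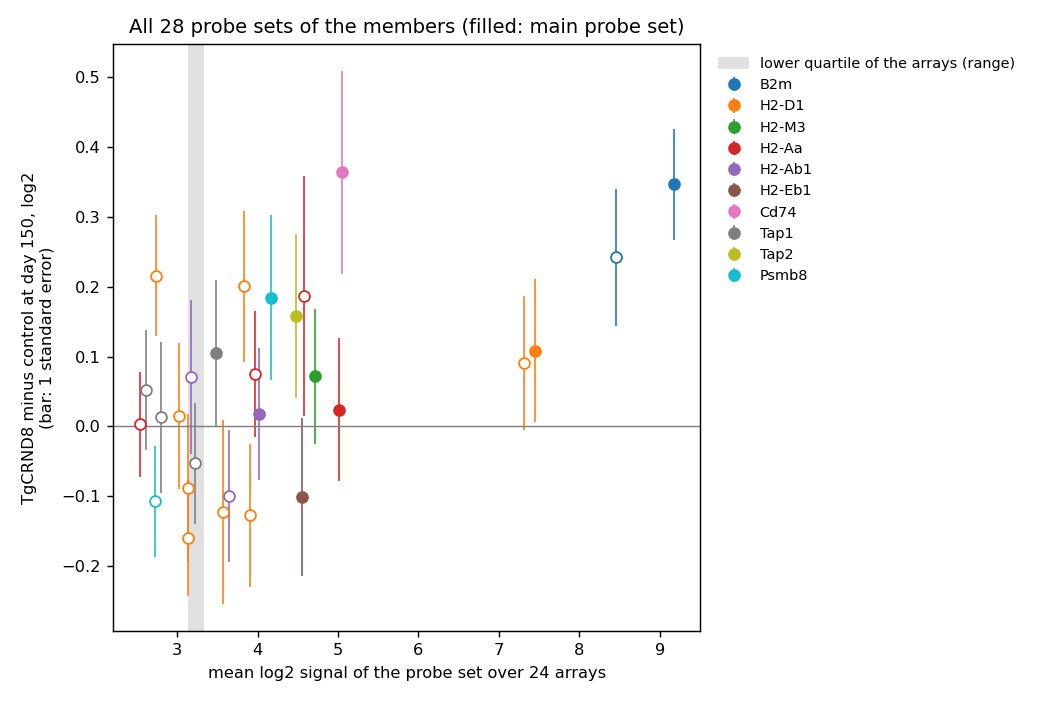
Difference between TgCRND8 and control at day 150 in log2 (bar: 1 standard error) against the mean log2 signal of all 28 member probe sets over the 24 arrays, filled for main sets and open for others, with the range of the array lower quartiles shaded. The 2 B2m sets lie at 0.35 and 0.24; the dim H2-D1 sets lie on both sides of 0.

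At day 150, 50.1% of all genes were higher and 0.121% passed, and the counts of the wider lists stand beside these shares. The wider class II list holds further chain genes, processing genes, regulators and costimulatory genes. Of its 19 measured genes, 12 were higher at day 150 and 1 passed. It was Ctss, the lysosomal protease that trims the invariant chain, at 9.47 against 8.92 (0.56, standard error 0.089, adjusted p = 0.00258, limma). Cd86, a costimulatory ligand, was higher by 0.34 without passing (limma adjusted p = 0.687). Of 13 class I genes beyond the members, 6 were higher and none passed. Nlrc5, the class I transactivator (0.25, standard error 0.097), and H2-T24 (0.22, standard error 0.089) had the smallest p (limma adjusted p = 0.9995 each). Both were dim: the Nlrc5 mean over the arrays, 3.05, was below the highest lower quartile of any array (3.32), and that of H2-T24 was 3.35. Of 11 peptide loading genes, 8 were higher and none passed, Psme1, a proteasome activator subunit, by 0.25 (standard error 0.078, adjusted p = 0.687, limma) and Erap1, which trims peptides, by 0.21. Of 14 constitutive proteasome subunits, 4 were higher, with a median of -0.016 and differences from -0.088 to 0.024.

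Interferons are known inducers of both classes. Of 13 genes on the interferon gamma path, 7 were higher at day 150 and none passed; Irf8, a transcription factor of microglia and other myeloid cells, was highest at 0.52 (standard error 0.12, adjusted p = 0.126, limma), and Ifng itself lay at -0.16. Of 15 type I interferon targets, 8 were higher and none passed, with Ifitm3 at 0.38 (adjusted p = 0.823, limma) and Mx1 at -0.22 (adjusted p = 0.982, limma). At days 70 and 80 no gene of the 6 wider lists passed. With age in TgCRND8, Ctss was higher by 0.54 (adjusted p = 0.0059, limma) and passed, while H2-K1, a classical class I heavy chain (0.19), Irf8 (0.43) and Xaf1 (0.30) did not; in controls Ctss differed by 0.074.

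**Figure D5:**
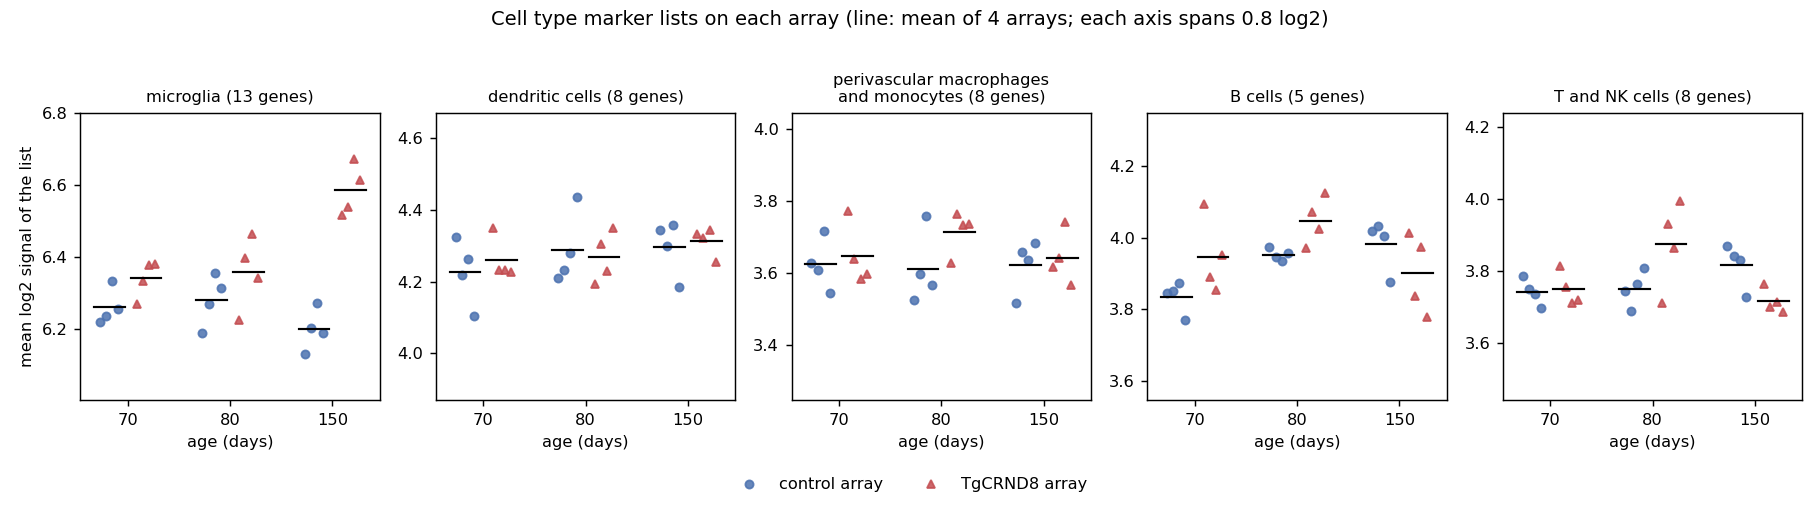
Mean log2 signal over the marker lists of microglia, dendritic cells, perivascular macrophages and monocytes, B cells, and T and NK cells on every array (points, 4 per group) against age in days, with the group mean as a line; each axis spans 0.8 log2. Microglia markers lie at 6.52 to 6.67 in TgCRND8 at day 150 against 6.13 to 6.27 in controls; the genotypes overlap at that age on these other 4 lists.

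Cell type markers moved beside B2m and Cd74. Of 13 microglia markers, 12 were higher at day 150, with a median of 0.27, and Tyrobp (1.31), C1qc (0.69), Trem2 (0.62) and C1qa (0.54) passed. The list mean was 6.52 to 6.67 in TgCRND8 and 6.13 to 6.27 in controls. Of the 5 B cell and 8 T and NK cell markers, 1 each was higher, and the means of Cd3d, Cd3g, Cd8b1, Nkg7 and Klrd1 over the arrays were below 3.32, the highest lower quartile of any array. The brightest markers of these lists were Ighm (-0.14) and Pax5 (-0.071), and Cd3e (-0.12) and Cd4 (0.054). Of 8 dendritic cell markers, 2 were higher, Itgax at 0.33 and Siglech at 0.30; Itgax and the dim T and NK cell markers were named after their values were seen. Of 8 markers of perivascular macrophages and monocytes 4 were higher, of 5 neutrophil markers 1, of 8 endothelial 4, of 7 meningeal and fibroblast 4, of 6 choroid plexus 1, of 4 blood 2, of 8 neuronal 5 and of 6 oligodendrocyte 4, none passing; of 7 astrocyte markers 2 were higher and Gfap (1.42) passed. The astrocyte list mean was 9.67 to 9.81 in TgCRND8 and 9.44 to 9.60 in controls, also without overlap, while the median difference of its 7 markers was -0.0024 and 5 were lower. Whether the microglia and astrocyte values account for those of B2m and Cd74 was not tested.

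Over the 24 arrays the genes most like B2m were Ctss (r = 0.86), Gfap (0.80) and Wwox (0.80), and within groups these fell to 0.44, 0.29 and 0.51. For Cd74 they were Ctsz (0.72), Ctss (0.72) and Cyba (0.69), with 0.54, 0.43 and 0.56 within groups. For H2-D1 they were Niban2 (0.78), Tmx2 (0.74) and Gprasp1 (0.72), for H2-M3 Lyrm9 (0.69), Egfr (0.66) and Exoc3l (0.64), and for Psmb8 Bdh2 (0.81), Cfap45 (0.70) and Wdr38 (0.66). For Tap1 they were Dnajb12 (0.78), Pcdhb1 (0.76) and Krt83 (0.71) and for Tap2 Ermard (0.68), Erap1 (0.67) and Hps3 (0.65). For the class II chains they were Pcare (0.73), 1600010M07Rik (0.71) and Spdya (0.68) with H2-Aa, Wdr25 (0.74), Tfpi (0.70) and Ephb4 (0.69) with H2-Ab1, and 4921511C10Rik (0.74), Ephb4 (0.73) and Gsta4 (0.72) with H2-Eb1. B2m and Cd74 correlated at 0.69 over the arrays and at 0.30 within groups. H2-Ab1 and H2-Eb1 correlated at 0.69 and at 0.63 within groups, the highest within-group value of the 45 member pairs. Tap1 and Tap2 correlated at -0.050. These values describe arrays that share normalization and tissue, with no p given.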

How the data were processed

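The deposited table held log2 signals of 45101 Affymetrix probe sets (64 of them controls) for 24 arrays, as the authors made them; per the labels' protocols, TRIzol RNA of forebrain became biotin-labelled cRNA, with no normalization method given in the sources used here. In the platform annotation 34945 probe sets carried 1 symbol, 932 several and 9160 none, which left 18193 genes, each by its brightest probe set. The number of arrays, 4 mice per group, limits the precision; the median standard error of the day 150 difference was 0.0977. R 4.3.3 with limma 3.58.1 fitted all arrays at once (6 group means, 18 residual and 7.47 prior degrees of freedom). No filter on low values was applied in this fit. The code was tested on simulated data. Replicate numbers were checked for pairing by the correlation of deviations from group means. At day 150 same-numbered mice of both genotypes gave 0.137 to 0.256 in all 4 pairs, which met the rule of over 0.1. At day 70 they gave -0.321 to 0.292 and at day 80 -0.231 to 0.479, which did not. The block is therefore given beside the day 150 result. Among groups compared directly, the pairing speaks for the block only in the fit of the day 150 arrays alone. Same-numbered TgCRND8 mice of day 70 and controls of day 80, not compared directly, also met the rule (0.102 to 0.178). No other pair of groups did. Members, lists and motifs were chosen with earlier results of these data known. Named genes are all members, and of each wider list those that passed and the 2 with the smallest p; of marker lists those that passed and the 2 brightest; not all genes of either rule are printed. Promoters came from RefSeq (GRCm38.p6). The alternatives are in the closing section; 2 of them, the block with only the groups compared and the count of members higher, were added after the data were seen. Figures used Python 3.11.15 and matplotlib 3.10.9.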

Additional observations from a re-analysis of the deposited data

Results flagged for a closer look

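In TgCRND8 at day 70, the highest H2-Ab1 array read 4.00 and stood apart from the other 3, at 3.89 to 3.91: its gap to the nearest was 0.864 of the range of the group, above Dixon's 95% critical value for 4 samples. Of 60 sets of 4 arrays examined chance gives about 1 in 20 such gaps, and only this one appeared. The H2-Ab1 difference at day 70 was 0.0032 with all arrays.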

How the results depend on the processing

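No member passed under quantile normalization or median centring. None passed with the mean of all probe sets, with all probe sets as features, with trend and robust settings or with the Xist covariate. The fit without the dimmest 40 percent of genes dropped H2-Ab1, Tap1, Tap2 and Psmb8, and none of the 6 members left passed. With the replicate number as a block in the fit of all arrays, 1 member passed at day 150 and 1 with age in TgCRND8. It was B2m in both (difference 0.35 in each, limma adjusted p = 0.0365 and 0.0457). The block changed no other member's call. Same-numbered TgCRND8 mice of days 70 and 150 correlated at 0.232, -0.103, 0.118 and -0.157, which did not meet the pairing rule. With the block and only the groups compared, B2m passed in neither (adjusted p = 0.130 and 0.353, limma). With only the groups compared 1 passed with age in TgCRND8, Cd74 (adjusted p = 0.0151, limma), and also with the block added (1; adjusted p = 0.0269, limma). For all genes past the threshold, age in controls gave 4, and 2 under quantile normalization, all probe sets and the Xist covariate, 7 under median centring and the replicate block, and 0 with only the groups compared, block or not; the mean over ages gave 7 and 4 under median centring (6 higher and 1 lower against 3 and 1); the change at day 150 gave 2, and 1 without the dimmest genes, 5 with all probe sets and 4 with the replicate block; age in TgCRND8 gave 16 and 9 without the dimmest genes or with the mean of probe sets. Without one array, genes past the threshold ranged from 12 (without the day 150 control numbered 2) to 20 at day 150, 0 to 2 at day 80 (2 without the TgCRND8 array numbered 1), 4 to 10 for the mean over ages (4 without any 1 of 13 arrays), 0 to 3 for age in controls (0 without the day 150 control numbered 2 or 4 or the day 70 control numbered 4) and 8 to 14 for age in TgCRND8 (8 without the day 70 TgCRND8 array numbered 4). Of 632 single-member differences under other settings 608 kept their direction and side, 4 gained a call and 20 reversed. The reversed were, at day 70, H2-Ab1 (-0.012 quantile, -0.012 centring), Tap1 (-0.0091, -0.0028, and -0.023 with Xist), Cd74 (0.014 with Xist), and with the mean of sets H2-D1 (0.031) and H2-Aa (0.0075); at day 80, H2-Ab1 (-0.014 quantile, -0.0091 centring); at day 150, H2-Ab1 (-0.0036 mean of sets); for age in controls, Tap1 (-0.048, -0.037, and -0.035 with Xist); for the change, H2-Aa (0.0076 centring, 0.016 mean of sets) and, with the mean of sets, H2-D1 (-0.018), H2-Ab1 (-0.084), Tap1 (-0.039) and Psmb8 (-0.065). Leaving out each array in turn reversed 60 of 880 differences, over these ranges: at day 70 H2-M3 -0.066 to 0.028, H2-Aa -0.034 to 0.026, H2-Ab1 -0.076 to 0.059, Cd74 -0.095 to 0.12 and Tap1 -0.050 to 0.087; at day 80 H2-M3 -0.067 to 0.079, H2-Ab1 -0.049 to 0.096 and Psmb8 -0.0049 to 0.14; at day 150 H2-Aa -0.037 to 0.11 and H2-Ab1 -0.033 to 0.077; for the mean over ages H2-M3 -0.0046 to 0.053, H2-Ab1 -0.015 to 0.039 and H2-Eb1 -0.050 to 0.014; for the change H2-Aa -0.096 to 0.046, H2-Ab1 -0.042 to 0.068, Tap1 -0.083 to 0.12 and Psmb8 -0.080 to 0.11; for age in controls Tap1 -0.062 to 0.075 and Tap2 -0.093 to 0.029; for age in TgCRND8 Tap1 -0.010 to 0.19 and Psmb8 -0.065 to 0.13. The cause of these changes was not tested. Low signal over background limits the dim probe sets, Tap1 among them.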
